A study of Mus musculus with 6 samples.

Results

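Transcripts of 37 genes for purine and pyrimidine nucleotide synthesis were examined in mouse Th17 cells, the helper T cells that make IL-17, differentiated with or without 2-deoxyglucose (2DG), an analogue of glucose that inhibits glycolysis. The genes were chosen by name from textbook steps of the pathway, and all 37 were found among the 23203 loci of the expression table. They comprise 13 genes of purine synthesis from small precursors (de novo synthesis), 5 of pyrimidine de novo synthesis, 9 of salvage, 5 nucleotide kinases and 5 of the deoxynucleotide steps. Naive CD4 T cells were cultured for 48 h on plates coated with anti-CD3e at 10 µg/ml. All cultures also held anti-CD28 at 1 µg/ml, IL-6 at 20 ng/ml, TGFb1 at 2.5 ng/ml and IL-23 at 10 ng/ml. The control group received the DMSO vehicle and the treated group 250 µM 2DG, with 3 RNA-seq libraries in each. The strain, sex and age of the mice are not given in the labels used here, and nothing there says that the 3 libraries of a group stem from different animals or cultures. The p-values therefore rest on the spread between libraries alone, and this may be technical.

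Purine and pyrimidine nucleotides are the building blocks of RNA and DNA and carry energy and sugar groups in the cell. De novo synthesis uses phosphoribosyl pyrophosphate (PRPP), made from ribose 5-phosphate that the pentose phosphate pathway derives from glucose. Purine synthesis starts from PRPP. Between them, the purine and pyrimidine routes take nitrogen and carbon from glutamine, aspartate, glycine, formyl-folate and bicarbonate. Salvage enzymes rebuild nucleotides from bases and nucleosides. Activated T cells induce both routes as they enter the cell cycle, and drugs against several of the enzymes, such as mycophenolate for IMP dehydrogenase and leflunomide for DHODH, are used to suppress lymphocytes.

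Levels were FPKM (fragments per kilobase of transcript, scaled to the mapped fragments of a library), a scale per transcript length on which levels of different genes can be set side by side. The depth of the libraries is unknown, but a rough relative depth could be read from their lowest values. It ran from 0.413 to 1.1, with vehicle replicate 1 set to 1, and the replicate 2 library was the shallowest of each group. Of 8 general T cell genes, all were tested and Cd2 alone was lower with 2DG. The summed FPKM of these 8 was 1510 to 1690 in the vehicle libraries and 1240 to 1450 in the 2DG libraries. Of 8 Th17 genes, Il17a, Ccr6 and Rora were higher with 2DG, and their sum was 1810 to 2130 against 2540 to 3280. Markers of other cells were low, with sums of 0.620 to 3.71 against 0.0945 to 2.25 for 5 B cell genes and of 1.5 to 4.84 against 1.34 to 3.49 for the 7 myeloid genes in the table. The 4 NK cell genes summed to 13.2 to 35.3 against 8.56 to 17.8, nearly all of it from Klrd1, and Klrb1c was listed at 0 in every library. The part of these differences between the groups in the results was not tested. In such bulk samples, fewer cells of a type and less RNA per cell cannot be told apart.

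No nucleotide synthesis gene passed the test in either direction with 2DG. Of the 37 genes, 36 had a mean of at least 1 FPKM and entered the fit over 10228 loci (limma on log2(FPKM + 1), Benjamini-Hochberg adjusted p under 0.05). Of these, 0 were called higher, where 1.53% of all tested loci were called, and 0 were called lower, where 1.19% were called. The smallest adjusted p among them was 0.12 (limma), for Prps2 and Samhd1. At an unadjusted limma p under 0.05 there were 3 higher genes (Prps2, Adk and Pfas) and 4 lower ones (Samhd1, Aprt, Gart and Impdh1), together 19.4% of the 36. The same mark was passed by 9.07% of all tested loci upward and 8.82% downward, so the members' share lay near the background. The 3 libraries of one group lay entirely above those of the other for Prps2, higher with 2DG, and for Gart, Aprt and Samhd1, lower with 2DG. These are 11.1% of the 36. Of all tested loci, 11.9% were higher and 11.8% lower without overlap, together 23.7%, so the members' share lay below the background.

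The differences were also small and bounded. The log2 fold changes (2DG minus vehicle, on the log2(FPKM + 1) scale) had a median of 0.01, beside -0.01 for all tested loci, with 19 positive and 17 negative values between -0.36 for Samhd1 and 0.51 for Pfas. Group means differed by less than 10% for 26 of the 36 genes, and for 25 the difference was smaller than the pooled SD between replicates. The 95% interval of the fold change lay inside a 2-fold change in either direction for 35 genes, 97.2% of the 36, against 93.0% of all tested loci, and Pfas was the exception. It lay inside a 1.5-fold change for 32 genes, or 88.9%, against 74.2% of all tested loci. The exceptions there were Samhd1, Impdh1, Adk and Pfas. Intervals narrow with level, and these genes were abundant, with a median level at the 85.2nd percentile of the tested loci. The summed level of all 37 genes was 3498 ± 39.2 FPKM in the vehicle libraries and 3508 ± 110 FPKM in the 2DG libraries (SD, n = 3 each), a difference of 0.265%.

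**Figure D1:**
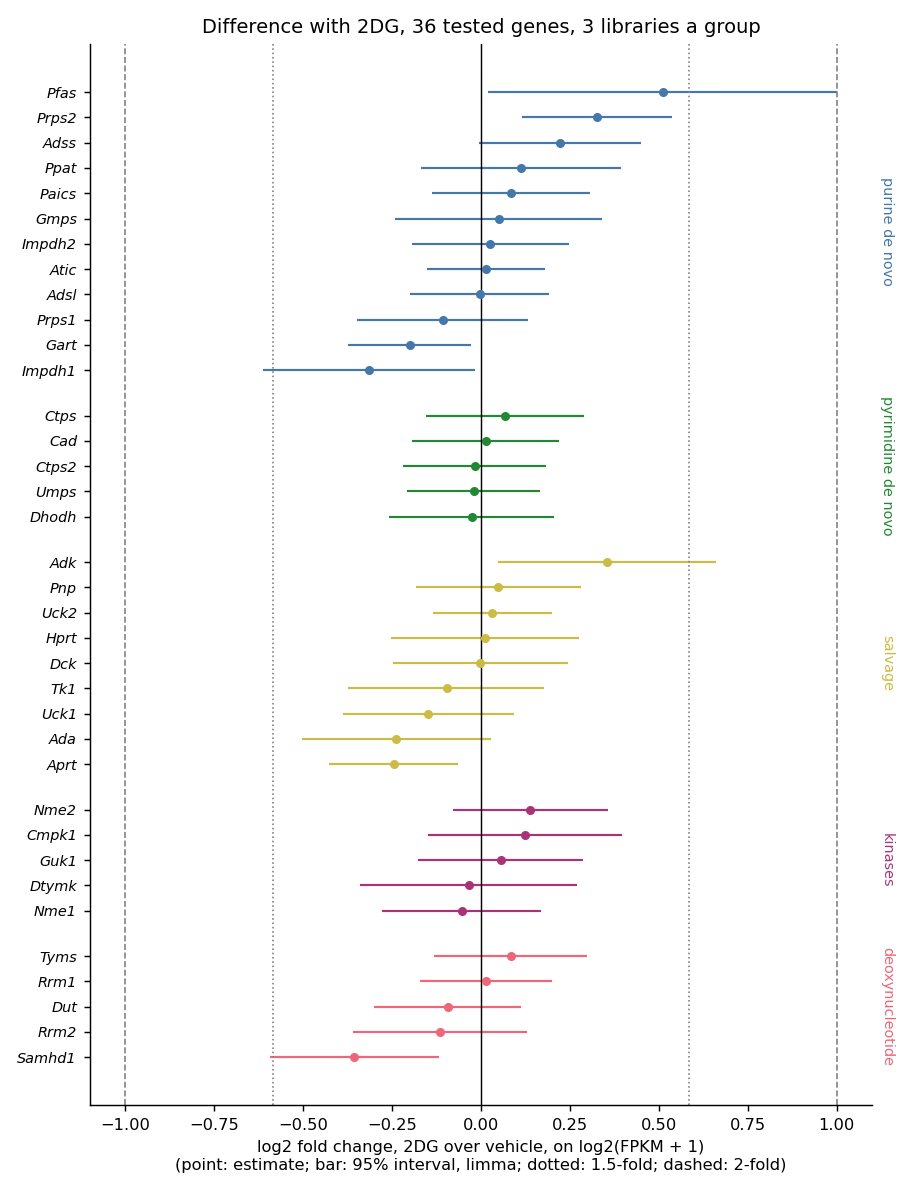
Log2 fold change (2DG minus vehicle, log2(FPKM + 1) scale) of the 36 tested nucleotide synthesis genes with 95% limma intervals, coloured by step. The values run from -0.36 (Samhd1) to 0.51 (Pfas), and 35 of 36 intervals stay inside a 2-fold change.

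The levels of the genes spanned a wide range. Nme2 and Nme1, 2 nucleoside diphosphate kinases that convert diphosphates to triphosphates, were the highest, at means of 519 and 271 FPKM over the 6 libraries. Aprt and Hprt, which salvage adenine and hypoxanthine with guanine, followed, and then Paics, Rrm2, Dut, Rrm1, Dtymk and Adss. The lowest tested genes were Dhodh, Ctps2, Uck1 and Ada, with Ada, the adenosine deaminase, at 8.80 FPKM. The median of the 36 genes was 59.5 FPKM. Summed by step, the 5 kinases held 1008 ± 46.9 FPKM with vehicle and 1050 ± 27.5 with 2DG. The 13 purine de novo genes held 921 ± 16.1 against 964 ± 22 FPKM, and the 9 salvage genes 724 ± 14.1 against 694 ± 34.3 FPKM. The 5 deoxynucleotide genes held 656 ± 23.6 against 611 ± 29.5 FPKM, and the 5 pyrimidine de novo genes 189 ± 6.57 against 190 ± 2.51 FPKM (SD, n = 3 each). No step total differed by more than 6.94%, the value of the deoxynucleotide genes.

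**Figure D2:**
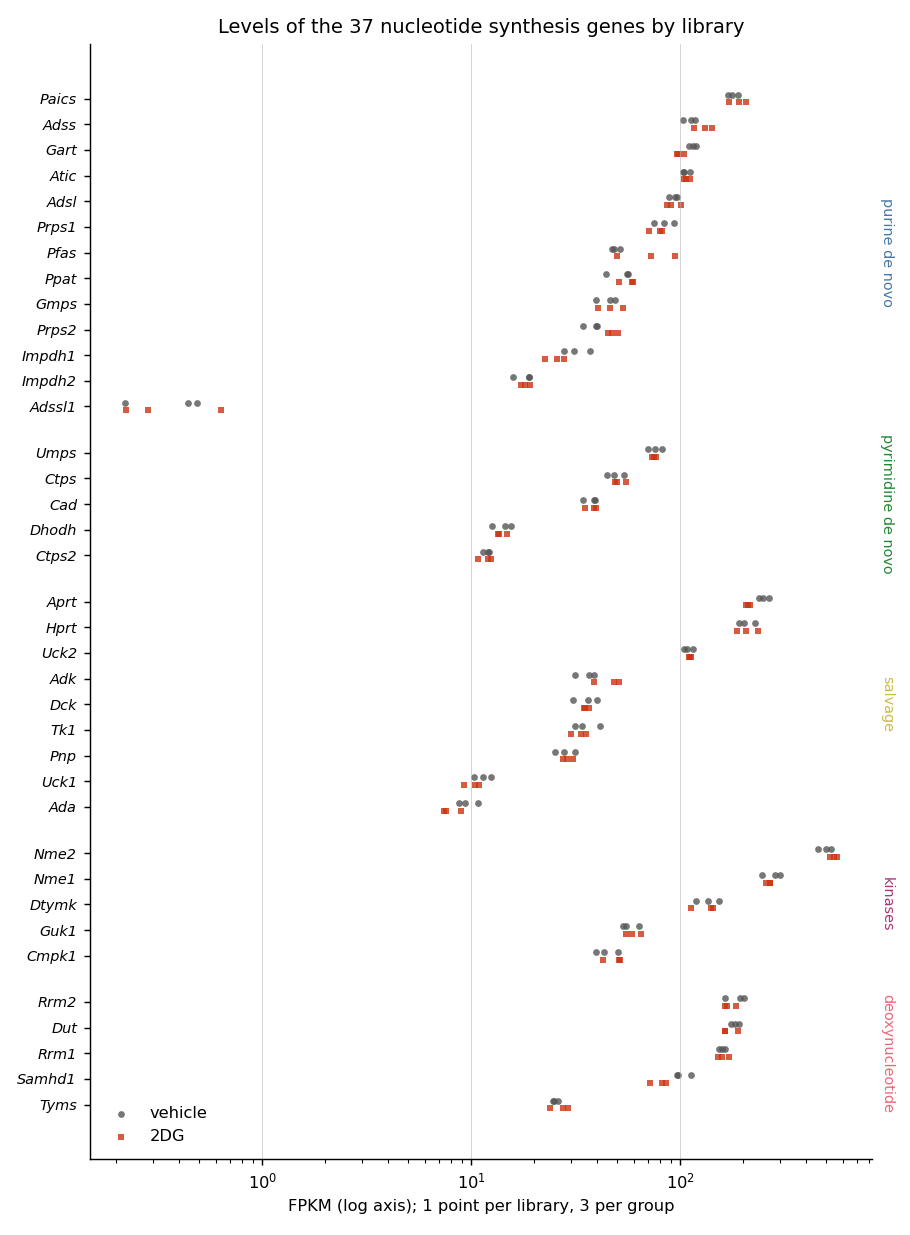
Level in FPKM (log axis) of each nucleotide synthesis gene in the 3 vehicle and 3 2DG libraries, grouped by step. Levels run from Nme2 at a mean of 519 FPKM to Ada at 8.80 among the tested genes, and the points of the 2 groups overlap for all but 4 of the 36.

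Short stretches before the RefSeq start sites of several members carry letters that the choice of genes did not use. E2F and MYC are transcription factors known to drive nucleotide synthesis genes in dividing cells, so the RefSeq promoter windows (250 bases before to 50 after the annotated start, GRCm38.p6) were searched for their letters on both strands. A window was found for 35 of the 37 genes, with none for Pfas and Dhodh. The E-box CACGTG, which MYC and related factors bind, was in the windows of 6 genes (17.1%), against 8.09% of all 27025 genes of the promoter table. The 6 genes are Paics, Atic, Impdh2, Nme1, Dtymk and Tyms. The E2F letters TTCCCGC or TTGGCGC were in those of 7 genes (20.0%), against 7.79% of all genes, namely Prps1, Prps2, Ppat, Adss, Impdh2, Dtymk and Rrm1. A match is a description of the letters, with no test, and binding was not measured. The shares of all genes include genes not expressed here, so they do not show how common the letters are among expressed genes. The stretches are shown because they are the shared letters in genes of separate steps, written 5′ to 3′ on the gene's strand with the matched letters in capitals. Capitals reading GCGGGAA or GCGCCAA are E2F letters on the opposite strand, and the Prps1, Prps2 and Impdh2 matches, which lie past the start, are not shown. Also not shown are a further match each for Ppat (E2F), Adss (E2F) and Nme1 (E-box). By the GENCODE coordinates used for the genes, the Impdh2 and Nme1 stretches lie inside the gene, and the Atic stretch reaches into it. The Paics stretch lies inside the neighbouring gene Ppat, and both Ppat stretches shown lie inside Paics.
Paics E-box, chr5:76951088-76951115, plus strand: gcctcggaaagCACGTGgagggacctgc
Atic E-box, chr1:71557138-71557155, plus strand: gacctcggggtCACGTGg
Impdh2 E-box, chr9:108560315-108560342, plus strand: agctcgataagCACGTGgttacccagct
Nme1 E-box, chr11:93968274-93968301, minus strand: ctgcggggaacCACGTGaggccggggag
Dtymk E-box, chr1:93802066-93802093, minus strand: tctcgaacttcCACGTGaccagagcctg
Tyms E-box, chr5:30073670-30073697, minus strand: accacttctgtCACGTGggggcggggtc
Ppat E2F, chr5:76951611-76951639, minus strand: tgtccccaggcTTCCCGCcgcgcaggcgc
Ppat E2F, chr5:76951719-76951747, minus strand: aggatcagaggGCGGGAAagggaggtgca
Adss E2F, chr1:177796582-177796610, minus strand: ggcttcggcctGCGCCAAgtgtggtcccg
Dtymk E2F, chr1:93801989-93802017, minus strand: agttccgcgagTTGGCGCtcgctaaactg
Rrm1 E2F, chr7:102441617-102441645, plus strand: aggagaactcgTTCCCGCcaggtccgctt

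Transcripts of the factors themselves did not pass the test. Myc was at 57.2 ± 8.40 FPKM with vehicle and 55.8 ± 7.91 with 2DG (log2 fold change -0.03, limma adjusted p = 0.93), and E2f1 at 6.88 ± 0.134 and 6.29 ± 0.437 (-0.11, limma adjusted p = 0.57). The members with an E-box had log2 fold changes between -0.05 (Nme1) and 0.08 (Paics and Tyms). Those with E2F letters ran from -0.11 (Prps1) to 0.33 (Prps2).

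Purine de novo synthesis begins with the PRPP synthetases, where the 2 isozymes differed in sign. Prps2 (chromosome X, 167346322 to 167382749) was at 34.2, 39.9 and 39.6 FPKM with vehicle and at 50.6, 47.1 and 45.3 with 2DG (replicates 1 to 3). Every 2DG library lay above every vehicle library. The means were 37.9 ± 3.20 and 47.7 ± 2.71 FPKM, a ratio of 1.26 and a log2 fold change of 0.33 ± 0.09 (SE, limma adjusted p = 0.12). Prps1, also on chromosome X, was at 75.1, 93.1 and 83.6 FPKM with vehicle and at 79.7, 82.0 and 71.2 with 2DG. Its groups overlapped, with a log2 fold change of -0.11 (limma adjusted p = 0.64). By these values Prps1 was the more abundant isozyme in all 6 libraries. A Prps1-like gene, Prps1l3, was listed at a mean of 57.1 FPKM. How reads were split between Prps1 and Prps1l3 is not given, so the Prps1 level is uncertain.

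The enzymes that build the purine ring from PRPP to IMP mostly lay close together in both groups. Ppat, the amidotransferase of the first committed step, was at 55.9, 43.9 and 56.5 FPKM with vehicle and at 58.5, 50.8 and 59.2 with 2DG. Paics, whose protein carries out the carboxylation and the aspartate step, was at 188, 170 and 178 against 191, 171 and 207 FPKM. Both sets overlapped, with log2 fold changes of 0.11 and 0.08 (limma adjusted p = 0.69 and 0.70). Ppat and Paics lie head to head on chromosome 5 and their annotated models share 277 bases, where reads of the 2 genes cannot be told apart since the use of strand is not given. Adsl, the adenylosuccinate lyase, and Atic, which makes IMP, had log2 fold changes of -0.00 and 0.01 (limma adjusted p = 0.99 and 0.95). Adsl ran from 88.4 to 96.1 FPKM with vehicle and from 87.0 to 101 with 2DG, and Atic from 103 to 111 against 104 to 111.

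Gart and Pfas were the ring-building genes with an unadjusted p under 0.05, on opposite sides. Gart, a trifunctional enzyme that uses glycine and formyl-folate (chromosome 16, 91621186 to 91646952), was at 119, 110 and 115 FPKM with vehicle and at 97.9, 96.5 and 105 with 2DG. All 2DG libraries lay below all vehicle libraries, with a ratio of 0.869 and a log2 fold change of -0.20 ± 0.07 (SE, limma adjusted p = 0.21). Pfas, which adds a glutamine nitrogen, was at 47.0, 48.3 and 51.3 FPKM with vehicle and at 72.5, 94.4 and 49.9 with 2DG. The 2DG libraries 1 and 2 were high and the third lay within the vehicle range, so the SD was 2.22 with vehicle and 22.3 with 2DG. Its log2 fold change was 0.51 ± 0.21 (SE, limma adjusted p = 0.26), and the adjusted p was 0.061 without 2DG replicate 3. The Pfas locus of the table also covers the microRNA gene Mir3062, which lies within it, so its value is that of both genes and is uncertain.

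At the branch from IMP, the adenine side and the guanine side were also uncalled. Adss, which starts AMP synthesis (chromosome 1, 177762962 to 177796511), was at 112, 104 and 117 FPKM with vehicle and at 142, 117 and 131 with 2DG. The groups overlapped, and the means of 111 ± 6.94 and 130 ± 12.8 FPKM gave a log2 fold change of 0.22 ± 0.10 (SE, limma adjusted p = 0.29). Its muscle-type isozyme Adssl1 was the member left out of the fit, at 0.444, 0.221 and 0.488 FPKM against 0.224, 0.634 and 0.284. Impdh1, for one of the 2 rate-limiting IMP dehydrogenases of GMP synthesis (chromosome 6, 29200434 to 29216364), was at 27.8, 37.1 and 31.1 FPKM with vehicle and at 22.5, 27.9 and 25.8 with 2DG. One 2DG library lay just above the lowest vehicle library, and the log2 fold change was -0.32 ± 0.13 (SE, limma adjusted p = 0.26). Impdh2 was at 15.9, 18.8 and 18.8 against 18.1, 19.1 and 17.3 FPKM, a log2 fold change of 0.03. Gmps, the GMP synthetase, ran from 39.5 to 49.0 FPKM with vehicle and from 40.6 to 53.0 with 2DG, a log2 fold change of 0.05 (limma adjusted p = 0.92 for Impdh2 and 0.87 for Gmps). Over the 12 tested purine de novo genes the median log2 fold change was 0.04, with 8 positive and 4 negative values.

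Pyrimidine de novo synthesis was the step with the smallest differences. All 5 log2 fold changes lay between -0.03 and 0.07, all 5 intervals lay inside a 1.5-fold change, and the smallest limma adjusted p was 0.76. Cad, the trifunctional enzyme of the first steps, was at 38.8, 34.4 and 39.3 FPKM with vehicle and at 35, 38.8 and 39.7 with 2DG. The groups overlapped almost fully, with a log2 fold change of 0.01 (95% interval -0.19 to 0.22). Dhodh, the mitochondrial dehydrogenase that feeds electrons to ubiquinone, was at 14.5, 12.6 and 15.6 against 13.6, 14.8 and 13.4 FPKM. Umps, which completes UMP, was at 70.4, 81.9 and 76.1 against 76.7, 73.3 and 74.8 FPKM. Their log2 fold changes were -0.03 and -0.02. The CTP synthetases Ctps and Ctps2, which aminate UTP, had log2 fold changes of 0.07 and -0.02. Ctps, the isozyme known to be required for lymphocyte proliferation, was at 48.5, 44.7 and 53.9 against 55.2, 50.0 and 48.8 FPKM, and Ctps2 at 12.2, 12 and 11.4 against 12, 10.8 and 12.4.

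Among the 9 salvage genes the median log2 fold change was 0.00, and Aprt and Adk, which both make AMP, lay on opposite sides. Aprt, the adenine phosphoribosyltransferase (chromosome 8, 122574635 to 122576909), was at 238, 266 and 249 FPKM with vehicle and at 207, 211 and 216 with 2DG. All 2DG libraries lay below all vehicle libraries, and the SD within each group was 13.7 and 4.70 FPKM. The ratio of means was 0.842 and the log2 fold change -0.25 ± 0.08 (SE, limma adjusted p = 0.16). Adk, the adenosine kinase (chromosome 14, 21052574 to 21448569), was at 36.8, 31.3 and 38.7 FPKM with vehicle and at 48.4, 38.5 and 50.8 with 2DG. Its groups overlapped through 2DG replicate 2, which lay just under vehicle replicate 3, and the log2 fold change was 0.35 ± 0.13 (SE, limma adjusted p = 0.21). Adenosine can instead be deaminated by Ada, which was at 10.7, 9.34 and 8.76 FPKM with vehicle and at 7.57, 8.98 and 7.44 with 2DG (log2 fold change -0.24, limma adjusted p = 0.32).

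The other salvage genes showed smaller differences. Aprt, Tk1, Pnp, Uck1 and Uck2, like Prps2, Gart, Ppat, Paics, Pfas, Adss, Impdh2, Umps and Ctps2, overlap genes on the opposite strand. Reads of those genes cannot be told apart from theirs there without strand. The overlaps of Impdh2 and Uck1 span 48 and 4 bases. Hprt, often used as a reference gene, was at 229, 192 and 202 FPKM with vehicle and at 206, 188 and 235 with 2DG, a log2 fold change of 0.01 (limma adjusted p = 0.98). Pnp, the purine nucleoside phosphorylase whose loss depletes T cells, was at 25.2 to 31.3 against 27.6 to 30.8 FPKM. Its annotated span overlaps that of Pnp2, a close copy, so its value is uncertain. The uridine and cytidine kinases Uck1 and Uck2 had log2 fold changes of -0.15 and 0.03. Tk1, the S-phase thymidine kinase, was at 41.3, 31.5 and 34.0 against 30.1, 33.6 and 35.4 FPKM, and Dck, the deoxycytidine kinase, at 36.2, 30.8 and 40.1 against 36.6, 34.7 and 35. Their groups overlapped, with log2 fold changes of -0.10 and -0.00.

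The 5 kinases that raise monophosphates and diphosphates had log2 fold changes between -0.05 and 0.14, and the smallest limma adjusted p was 0.50. That value belonged to Nme2, at 455, 529 and 498 FPKM with vehicle and 522, 546 and 562 with 2DG. Its neighbour Nme1 was at 246, 299 and 285 against 271, 259 and 268 FPKM. Both groups overlapped for each gene. The 2 genes lie side by side on chromosome 11, where the read-through model Gm20390 overlaps both, so the split of reads between them is uncertain. Cmpk1, for UMP and CMP, was at 39.7 to 50.4 against 42.9 to 51.4 FPKM, and Guk1, for GMP, at 53.4 to 63.3 against 55.1 to 64.9. Dtymk, for dTMP, was at 153, 119 and 135 against 144, 113 and 140 FPKM.

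Among the deoxynucleotide genes, Samhd1 had the most negative fold change and the synthetic enzymes differed little. SAMHD1 breaks deoxynucleoside triphosphates down, opposing ribonucleotide reductase. Samhd1 (chromosome 2, 157097533 to 157135265) was at 97.2, 112 and 96.7 FPKM with vehicle and at 71.5, 81.9 and 85.5 with 2DG. All 2DG libraries lay below all vehicle libraries. The means of 102 ± 8.97 and 79.6 ± 7.28 FPKM gave a ratio of 0.780 and a log2 fold change of -0.36 ± 0.10 (SE, 95% interval -0.59 to -0.12, limma adjusted p = 0.12). Rrm1, the large subunit of ribonucleotide reductase, was at 164, 153 and 159 against 159, 151 and 171 FPKM. Rrm2, the small subunit of cycling cells, was at 194, 165 and 203 against 186, 163 and 168 FPKM. The groups overlapped for both, with log2 fold changes of 0.01 and -0.12 (limma adjusted p = 0.95 and 0.62). Tyms, the thymidylate synthase, was at 25, 24.7 and 25.9 against 27.4, 23.8 and 29.2 FPKM, and Dut, which removes dUTP, at 192, 175 and 184 against 164, 163 and 189. Their log2 fold changes were 0.08 and -0.09.

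Ratios within a library, which do not depend on how the libraries were scaled apart from the pseudocount, were compared for 8 pairs of isozymes or partners. For 4 of the 8 pairs the ratio was lower in every 2DG library than in every vehicle library. Of single tested loci, 11.9% were higher and 11.8% lower without overlap, together 23.7%. The share among ratios of other gene pairs was not computed, so the count of 4 is a description without its own background. With 3 against 3 libraries the exact two-sided permutation test cannot give a p below 0.1, so no pair could pass, and each of the 4 stood at 0.1 (0.2 after Benjamini-Hochberg adjustment over the 8). The ratio of Prps1 to Prps2 in FPKM was 2.2, 2.34 and 2.11 with vehicle and 1.57, 1.74 and 1.57 with 2DG. On the log2 scale it went from 1.13 ± 0.07 to 0.69 ± 0.08 (SD, n = 3 each), a difference of -0.43 and more than the spread within each group. The ratio of Impdh1 to Impdh2 was 1.75, 1.97 and 1.65 with vehicle and 1.25, 1.46 and 1.5 with 2DG, a log2 difference of -0.34. Impdh1 was the more abundant dehydrogenase in all 6 libraries.

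For the other pairs without overlap the separation was thinner or the split of reads uncertain. The ratio of Prps1 to Prps2 also rests on the uncertain split of reads between Prps1 and Prps1l3. The log2 ratio of Rrm2 to Rrm2b, the small subunit induced by p53, was 5.26 ± 0.11 with vehicle and 5 ± 0.11 with 2DG (SD, n = 3 each). The replicate 1 libraries of the 2 groups almost touched, at 5.14 with vehicle and 5.12 with 2DG. Rrm2b itself was at 3.92 ± 0.738 and 4.40 ± 0.0825 FPKM and was not called (limma adjusted p = 0.63). The log2 ratio of Nme1 to Nme2 was -0.84 ± 0.04 with vehicle and -1.03 ± 0.07 with 2DG, and it rests on the uncertain split of reads under the read-through model Gm20390. The pairs Uck1 and Uck2, Adss and Adssl1, Ctps and Ctps2, and Ppat and Paics differed by -0.18, 0.23, 0.09 and 0.03 on the log2 scale. Their exact two-sided permutation p-values were 0.2, 0.4, 0.7 and 0.9.

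**Figure D3:**
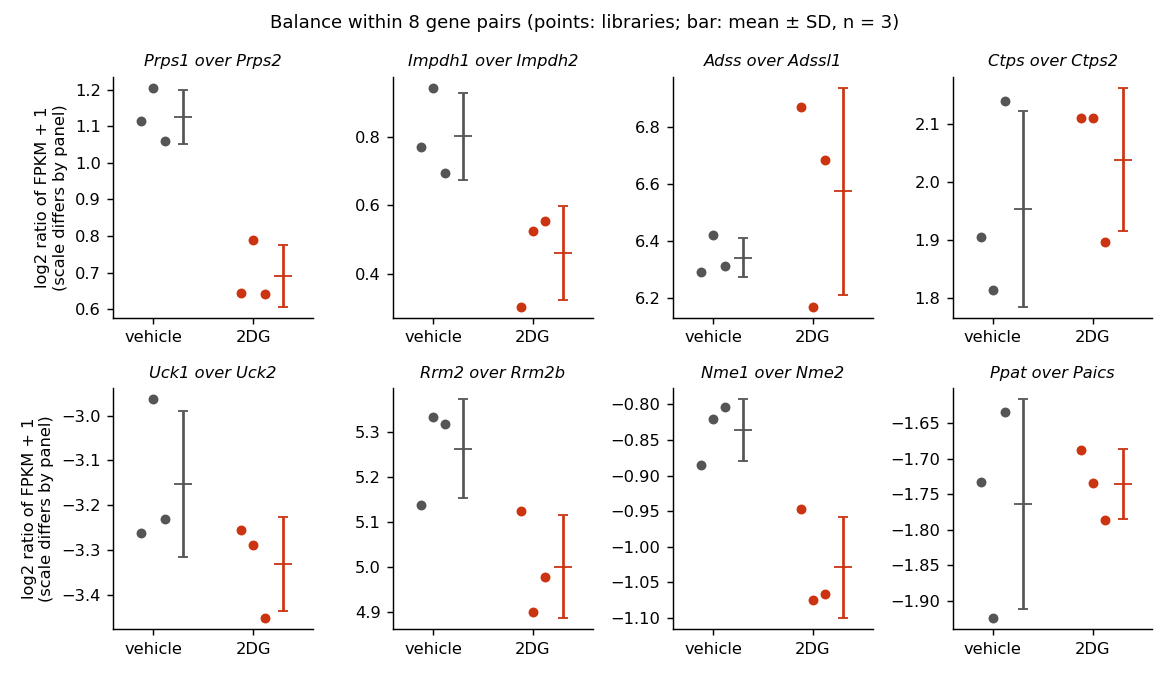
Log2 ratio of FPKM + 1 within each library for the 8 pairs of isozymes or partners, one panel a pair with its own vertical scale, vehicle and 2DG libraries as points with the mean ± SD of each group. The 2DG points lie below all vehicle points for Prps1 and Prps2, Impdh1 and Impdh2, Rrm2 and Rrm2b, and Nme1 and Nme2.

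The members varied between replicates in a shared way. Their median coefficient of variation within a group was 8.46%. In both groups the replicate 2 library held the lowest of the 3 values for 15 of the 36 genes (41.7%), while this was so for 16.1% of all tested loci. The 15 genes are Ppat, Gart, Paics, Adss, Gmps, Hprt, Adk, Uck2, Dck, Cmpk1, Dtymk, Tyms, Dut, Rrm1 and Rrm2. Replicate 2 was highest in both groups for 3 genes (8.33%), against 25.9% of all tested loci. The 20 genes of S phase and proliferation, chosen as a list of their own, had 8 genes (40.0%) lowest in both replicate 2 libraries. The median deviation of the 36 genes from their vehicle means was -0.04 in vehicle replicate 2 and -0.05 in 2DG replicate 2. It lay between 0.00 and 0.04 in the other 4 libraries. For the 2DG libraries this deviation also holds the difference between the groups. The count of genes lowest in replicate 2 was chosen after the values were seen. The replicate 2 libraries were also the shallowest of each group by the rough estimate of depth, and the part of depth in the pattern was not tested. With replicates 1 and 3 only, 0 of the 36 genes were called in either direction (limma).

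**Figure D4:**
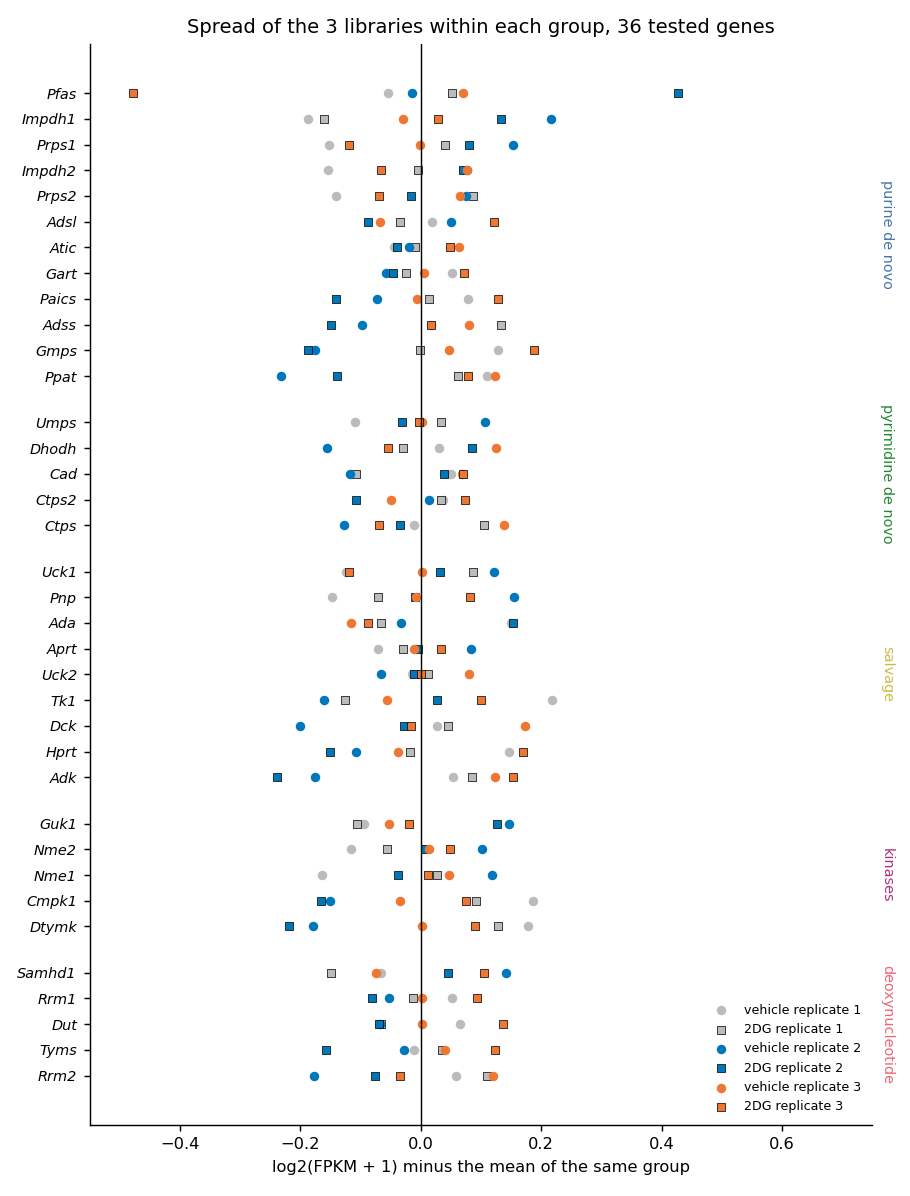
Deviation of each library from the mean of its own group (horizontal axis, log2(FPKM + 1) scale) for the 36 tested nucleotide synthesis genes, with circles for vehicle, squares for 2DG and a colour for each replicate number. The blue points of replicate 2 lie furthest left in both groups for 15 genes, Adk, Hprt, Dtymk and Ppat among them.

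Genes around the pathway were examined with lists of 127 further genes, of which 125 were in the table and 105 were tested. Of these, 4 were higher and 1 was lower with 2DG, where 1.53% and 1.19% of all tested loci were called, and the median log2 fold change of the 105 was -0.02. One of the 4, Upb1, passed the filter on low values only through the 2DG group, and 3 genes were higher with a minimum mean of 5 FPKM. Of the other purine genes (14 tested), other deoxynucleotide genes (10), nucleotidases (9), nucleoside transporters (4), regulators (12) and S-phase genes (20), 0 were called by limma. At an unadjusted limma p under 0.05 these 6 lists held 5 genes higher and 6 lower of 69 tested, near the 9.07% and 8.82% of all tested loci. Mki67 and Pcna, which mark dividing cells, were at 52.5 ± 4.86 and 311 ± 19.9 FPKM with vehicle and at 52.5 ± 2.61 and 306 ± 19.0 with 2DG (limma adjusted p = 0.99 and 0.93). The S-phase list as a whole ran from -0.21 to 0.22 on the log2 scale. Slc29a1, the main nucleoside carrier, was at 83.3 ± 4.04 and 99.6 ± 2.88 FPKM without overlap (limma adjusted p = 0.12). Nt5e, which makes adenosine outside the cell, was at 70.9 ± 20.3 and 92.2 ± 16.3 FPKM with overlap, and Upp1, the uridine phosphorylase, at 3.02 ± 0.339 and 2.24 ± 0.156 (limma adjusted p = 0.43 and 0.23). Ampd3, an AMP deaminase, had a mean under the filter, at 0.747 to 1.22 against 0.474 to 0.679 FPKM.

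Of the called genes, 3 belong to the folate and precursor lists. In the folate and serine list of 15 tested genes, 6 were higher and 0 lower at an unadjusted limma p under 0.05, where 9.07% and 8.82% of all tested loci were, and 1 passed the adjusted test. Mthfd2, a mitochondrial folate enzyme on the route to the formyl groups of purines, was at 106, 91.4 and 89.8 FPKM with vehicle and at 141, 148 and 146 with 2DG, a ratio of 1.51 (log2 fold change 0.60, limma adjusted p = 0.018). Its partner Shmt2 was at 139 ± 3.72 and 186 ± 16.0 FPKM without overlap (limma adjusted p = 0.056, and under 0.05 in 4 of the alternative settings). The cytosolic folate enzyme Mthfd1 was at 65.2 ± 3.06 and 64.3 ± 4.82 FPKM (limma adjusted p = 0.92). Asns, which makes asparagine from aspartate and glutamine, was at 68.0, 47.1 and 48.6 against 106, 122 and 133 FPKM (log2 fold change 1.14, limma adjusted p = 0.017). Got1, the cytosolic aspartate aminotransferase, was lower, at 95.7, 83.1 and 76.8 against 48.7, 57.2 and 60.7 FPKM (-0.61, limma adjusted p = 0.045). Aspartate is a substrate of both pathways, but metabolites were not measured.

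In the pyrimidine list, Nme6 and Upb1 were called. Nme6, a further member of the nucleoside diphosphate kinase family, was at 9.65, 10.7 and 9.39 FPKM with vehicle and at 13.4, 14.3 and 14.4 with 2DG (log2 fold change 0.46, limma adjusted p = 0.041). Upb1, for the last step of uracil breakdown, was at 0.700, 0.577 and 0.510 against 1.89, 2.76 and 3.02 FPKM (1.14, limma adjusted p = 0.018). The vehicle mean of Upb1 was 0.596 FPKM, under the filter, so the gene entered the fit only through the 2DG group. At this low level the value rests on the pseudocount, and the log2 fold change was 1.92 with a pseudocount of 0.1. Each of the 5 calls was lost in at least 1 of the 6 fits with 1 library left out. Those of Got1 and Nme6 were lost in all 6. These fits hold fewer libraries, and their counts over all loci also fell, from 156 higher and 122 lower. They ran from 37 to 87 higher and from 14 to 55 lower. With the replicate block none of the 5 genes was called either. The limma adjusted p with one library left out ran from 0.021 to 0.084 for Mthfd2, 0.015 to 0.075 for Asns, 0.073 to 0.15 for Got1, 0.073 to 0.14 for Nme6 and 0.028 to 0.075 for Upb1. Counts over the 105 genes with one library left out ran from 0 to 3 higher, with 3 when vehicle replicate 1 was left out and 0 when vehicle replicate 3 or either of the 2DG replicates 2 and 3 was. No gene was called lower in any of these 6 fits.

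**Figure D5:**
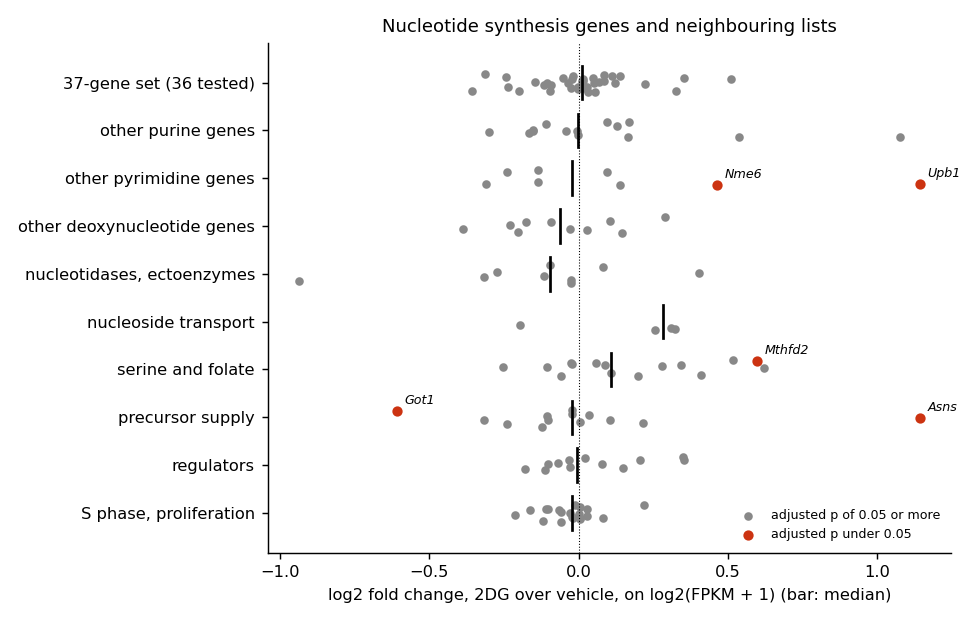
Log2 fold change (2DG minus vehicle, log2(FPKM + 1) scale) of the 36 tested nucleotide synthesis genes (top line) and of the 9 lists around them, one point a gene, with the median of each list as a bar and the called genes named in red. The 36 nucleotide synthesis genes hold no called gene, and Asns and Upb1 lie at 1.14 with the pseudocount of 1.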

How the data were processed

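RNA-seq values of 3 vehicle and 3 2DG libraries of Th17 cultures were used. The authors deposited 1 table that holds FPKM for each library and locus, per the file headers. Tools listed in the submitters' processing notes are Cuffdiff 2.2.1.3, Cuffnorm 2.2.1.1, Cufflinks 2.2.1.0 and TopHat2 2.1.0, with the mm10 build. The sources used here do not give the annotation, strand use or scaling. FPKM are estimates already scaled between libraries, so no count test was made, and genes that overlap others or have near-identical copies are uncertain. Values were analysed as log2(FPKM + 1), which understates the change of low genes.

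Of 23203 loci, the 10228 whose mean reached 1 FPKM entered limma 3.58.1 (R 4.3.3; lmFit, eBayes with a trend, group as the only term), with two-sided Benjamini-Hochberg adjusted p-values and a threshold of 0.05. Intervals are 95% intervals from the same fit. Ratios of gene pairs were compared by exact permutation. The code was tested on simulated data. Coordinates are from GENCODE M21 (GRCm38, the assembly mm10 denotes) and promoter windows from RefSeq. Groups came from the labels. Same-numbered libraries (17, 42 and 43 in the titles, here replicates 1 to 3) were not treated as pairs.

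The 37 members, the lists and the alternatives were chosen with earlier results of these data known. All 37 members are named, with genes of each further list past the threshold (at most 4) and Rrm2b, Mthfd2, Mthfd1, Shmt2, Myc, E2f1, Mki67, Pcna, Ampd3, Slc29a1, Nt5e and Upp1 in any case. A further gene of this rule is not reported here. Marker lists were 8 T cell, 8 Th17, 2 CD8 T cell, 5 B cell, 8 myeloid, 4 NK cell and 7 erythroid genes. The CD8 genes summed to 2.68 to 3.31 FPKM with vehicle and 2.91 to 5.51 with 2DG. The 4 erythroid genes that were read were listed at 0. Hba-a1 and Hba-a2, each at several loci, and Hbb-bt, which was not listed, were not read. Alternatives changed the pseudocount (0.1), the filter, the scaling, the eBayes options, the replicate block and the libraries used, and the one with replicates 1 and 3 only was chosen after seeing the data. Python 3.11.15 with matplotlib 3.10.9 drew the figures.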

Additional observations from a re-analysis of the deposited data

How the results depend on the processing

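In none of the 17 alternative settings was a nucleotide synthesis gene called by limma, in either direction, and the smallest adjusted p was 0.061 (Pfas, without 2DG replicate 3). The number with an unadjusted p under 0.05 ran from 2 (replicates 2 and 3 only) to 8. Of the 36 genes, 18 changed sign in at least 1 setting, none with a log2 fold change over 0.11 in size, and 0 of the 7 with an unadjusted p under 0.05 did. The median of the 36 was 0.066 after rescaling to equal sums without small RNA genes, where that of all loci was 0.04, and lay between -0.02 and 0.035 when 1 library was left out. Intervals inside a 1.5-fold change numbered 30 to 35. With replicates 2 and 3 only, the difference in log2 ratio was -0.39 for Rrm2 and Rrm2b and -0.26 for Nme1 and Nme2.

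Among the 105 genes of the lists around the pathway, 7 were higher with equal sums, quantile normalization, robust eBayes or without small RNA genes, 1 with replicates 2 and 3 only, and 0 with replicates 1 and 3 only. The lower count was 3 with robust eBayes or without small RNA genes, and 0 with eBayes without a trend, with no filter, or with replicates 1 and 3 or 2 and 3 only. With 1 library left out, 0 to 3 were higher and 0 to 0 lower. Deviations of same-numbered libraries had correlations of -0.05, 0.19 and -0.11, where those of differently numbered ones ran from -0.17 to 0.22. With 3 libraries a group these values cannot decide whether the numbers mark pairs. With the replicate block, 0 nucleotide synthesis genes were called, the lists around them held 0 higher and 0 lower genes (adjusted p = 0.064 to 0.12 for the 5 called ones), and all loci 57 and 44. Over all loci the counts were 156 and 122 as reported, and ran from 6 and 5 (replicates 1 and 3 only) to 261 and 212 (without small RNA genes). Depth is unknown, which limits what low genes such as Adssl1 and Upb1 can show.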
